A study of Rattus norvegicus with 20 samples.

Results

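The account concerns 9 genes around the aryl hydrocarbon receptor and drug metabolism, measured in rat oesophagus: Ahr, Ahrr, Tiparp, Cyp1a1, Cyp1b1, Aldh3a1, Aldh1a1, Cyp2b2 and Abcb1b. They were taken by gene symbol from the array's annotation, which held 8 of them, and Tiparp was found through the description of an Ensembl transcript probe. All 9 passed the filter on dim probes and are among the 12801 genes compared. The question is which of them differed from untreated disease under omeprazole and under the herbal preparation STW5, and whether the same ones did so under both.

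Oesophagitis was induced by surgery in Wistar rats, and oesophageal RNA was hybridised to 20 one-colour (Cy3) Agilent arrays, 4 in each of 5 groups. The groups were sham-operated rats without drug, rats with oesophagitis left untreated, and rats with oesophagitis given STW5 at 0.5 ml/kg (low dose), STW5 at 2 ml/kg (high dose) or omeprazole at 30 mg/kg. Dosing began 7 days ahead of the operation and went on for 10 days afterwards, so each drug group combines prevention and treatment. No group received a drug without surgery.

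Which STW5 arrays carry which dose is not settled. Sample titles and the numbering in the study's description give the dose groups in opposite order, and in the deposited value table all 8 STW5 columns match the scanner data of the other dose. Doses are named here as the scanner data were labelled, and the main results are also given with both doses pooled. Low-dose replicates 1 and 2 differed by 1.22 times the spread between spots of a probe on a single array, against at least 2.72 times for every other pair within a group, and were averaged and counted as 1 sample (19 samples, low dose n = 3). Sham replicate 2 and omeprazole replicate 2 were the closest arrays of different groups (1.72 times; r = 0.992 over all genes), and the calls in comparisons of sham or omeprazole are given with and without both. Across all arrays, 7 of 20 correlated more strongly with an array of another group than with any of their own. The sham arrays shared a slide, untreated and low-dose arrays shared another, and high-dose and omeprazole arrays shared another, so only low-dose against untreated and high-dose against omeprazole lie within a slide, and elsewhere an effect of slide cannot be told apart from one of group. The keratins Krt4 and Krt13, which define oesophageal squamous epithelium, were well above background on all 20 arrays. So were the stomach markers Tff1 and Pgc, while Atp4a was on 8 arrays. On the log2 scale defined below, Tff1 ran from -4.92 to 4.58 over the arrays and Pgc from -3.69 to 0.55. The part of stomach tissue in the results was not tested.

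The aryl hydrocarbon receptor is a transcription factor that rests in the cytoplasm with heat shock protein chaperones, enters the nucleus when it binds planar aromatic compounds, pairs with Arnt and binds DNA at a short core sequence. Its classic targets are the monooxygenases Cyp1a1 and Cyp1b1, the aldehyde dehydrogenase Aldh3a1, and the feedback inhibitors Ahrr and Tiparp. Omeprazole is known from liver cells as an inducer of Cyp1a enzymes. Cyp2b2 is a classic target of another xenobiotic sensor, the constitutive androstane receptor.

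The windows before the listed start sites of the members that hold the receptor's core GCGTG are shown because that core is how the receptor contacts its targets. Promoter entries for 7 of the 9 genes were found in RefSeq (assembly GRCr8), and Cyp1a1 and Aldh3a1 are not analysed here. The 250 bases before the start were searched for GCGTG on both strands, and 4 of the 7 windows held it. Capitals mark the core as read 5′ to 3′ on the gene's strand, where CACGC is the same core on the other strand. The windows lie at chr1:30821969-30822218 (Ahrr), chr6:21094315-21094564 (Cyp1b1), chr2:152063519-152063768 (Tiparp) and chr1:90722031-90722280 (Cyp2b2), all on the plus strand. Each ends at the start that the promoter table uses, which for Ahrr and Tiparp is the first base of the gene record. For Cyp1b1 (gene record chr6:21093927-21103091) and Cyp2b2 (chr1:90722243-90736272) that start lies inside the record. The Cyp1b1 window therefore lies wholly inside the gene record, and the Cyp2b2 window reaches into it with its last bases.
Ahrr: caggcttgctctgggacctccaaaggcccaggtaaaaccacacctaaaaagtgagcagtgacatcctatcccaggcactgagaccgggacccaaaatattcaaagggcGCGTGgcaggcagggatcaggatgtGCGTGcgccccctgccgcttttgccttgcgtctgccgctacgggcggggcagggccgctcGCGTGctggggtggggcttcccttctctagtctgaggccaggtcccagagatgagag
Cyp1b1: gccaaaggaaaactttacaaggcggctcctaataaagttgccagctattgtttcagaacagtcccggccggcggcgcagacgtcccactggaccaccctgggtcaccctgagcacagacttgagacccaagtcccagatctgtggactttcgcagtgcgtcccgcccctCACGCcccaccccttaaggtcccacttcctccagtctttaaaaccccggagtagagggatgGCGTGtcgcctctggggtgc
Tiparp: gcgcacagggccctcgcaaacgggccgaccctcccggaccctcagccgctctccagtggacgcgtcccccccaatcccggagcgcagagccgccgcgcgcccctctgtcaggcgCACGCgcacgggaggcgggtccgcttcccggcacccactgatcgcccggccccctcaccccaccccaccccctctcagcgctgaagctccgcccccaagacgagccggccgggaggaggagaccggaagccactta
Cyp2b2: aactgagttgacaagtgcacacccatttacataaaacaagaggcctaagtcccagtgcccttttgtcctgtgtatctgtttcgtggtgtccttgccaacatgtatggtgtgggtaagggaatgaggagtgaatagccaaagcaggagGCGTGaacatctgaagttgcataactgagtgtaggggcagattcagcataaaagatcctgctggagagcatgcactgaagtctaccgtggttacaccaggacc
The Ahrr window held the core 3 times, beginning 142, 117 and 57 bases before the listed start. The Cyp1b1 window held it at 81 bases (other strand) and 20 bases before the listed start. Tiparp had a single match on the other strand at 136 bases, and Cyp2b2 had a single match at 103 bases. The core is short and frequent: 25.9% of 33469 RefSeq rat promoter windows of the same length held it at least once, 8.12% at least 2 times and 2.58% at least 3 times. The longer form TNGCGTG, which contains the core and was also searched on both strands, was found in 4.09% of all windows and among the members in the Ahrr and Cyp1b1 windows.

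Levels are given as log2 of the processed signal minus the array's 75th percentile of the same quantity, so that 0 is the brightness of a probe at that percentile and each unit is a doubling. By the array's annotation (rat assembly rn4), the probes are 60 bases long and lie at chr6:54205172-54205231 (Ahr), chr1:29894853-29894912 (Ahrr), chr2:155338483-155338542 (Tiparp), chr8:61468133-61468192 (Cyp1a1), chr6:2548567-2548626 (Cyp1b1), chr10:47374814-47374873 (Aldh3a1), chr1:223773152-223773211 (Aldh1a1) and chr4:21912155-21912214 (Abcb1b). Levels of different genes come from different probes and are not set against each other. Differences are group means subtracted on this scale, with their standard error and an adjusted p from limma over all 12801 genes, and a gene is called when that adjusted p is under 0.05. All comparisons with untreated disease share the same 4 untreated arrays, so they are not independent of each other. In whole tissue, a lower level from fewer cells of a type and one from less RNA per cell cannot be told apart.

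Most of the 9 genes were called between omeprazole and untreated disease, whose arrays lie on different slides. Against untreated disease 5 rose (Cyp1a1, Ahrr, Aldh3a1, Aldh1a1, Cyp2b2) and 3 fell (Cyp1b1, Ahr, Abcb1b), while 27.5% of all genes were called in that comparison (15% higher, 12.5% lower). In low-dose STW5 against untreated disease 4 rose (Cyp1a1, Aldh3a1, Aldh1a1, Cyp2b2) and 2 fell (Cyp1b1, Abcb1b), against 38.1% of all genes called (21.7% higher, 16.4% lower). In high-dose STW5 against untreated disease 3 rose (Cyp1a1, Ahrr, Cyp2b2) and 2 fell (Cyp1b1, Abcb1b), where 8.6% of all genes were called (4.35% higher, 4.25% lower). These counts share their untreated arrays. The median difference over the 9 genes was 1.15 under omeprazole, 0.54 under low-dose STW5 and 0.69 under high-dose STW5, beside 0.09, 0.15 and -0.02 over all genes. The 9 were chosen with earlier results of these data known and mix the receptor, its targets and other genes. These medians are therefore a description and not a measure of receptor activity. Untreated disease against sham called 6 of the 9 (33.7% of all genes, 15.4% higher and 18.2% lower): Cyp1b1 and Abcb1b rose, and Ahrr, Aldh3a1, Aldh1a1 and Cyp2b2 fell. Between omeprazole and sham Cyp1a1 was the 1 member called, where 1.09% of all genes were.

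Without sham replicate 2 and omeprazole replicate 2, untreated disease against sham gave 2.11 for Cyp1b1, 0.54 for Abcb1b, -2.35 for Aldh1a1, -1.64 for Aldh3a1 and -1.16 for Cyp2b2, all still called, and -0.72 for Ahrr, no longer called (adjusted p = 0.0661). Omeprazole against untreated disease then gave 5.37 for Cyp1a1, 2.00 for Cyp2b2, 1.35 for Aldh3a1, 1.15 for Ahrr, -0.81 for Ahr and -0.72 for Abcb1b, all still called. Aldh1a1 (1.29, adjusted p = 0.0598) and Cyp1b1 (-0.96, adjusted p = 0.0658) were no longer called there.

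**Figure D1:**
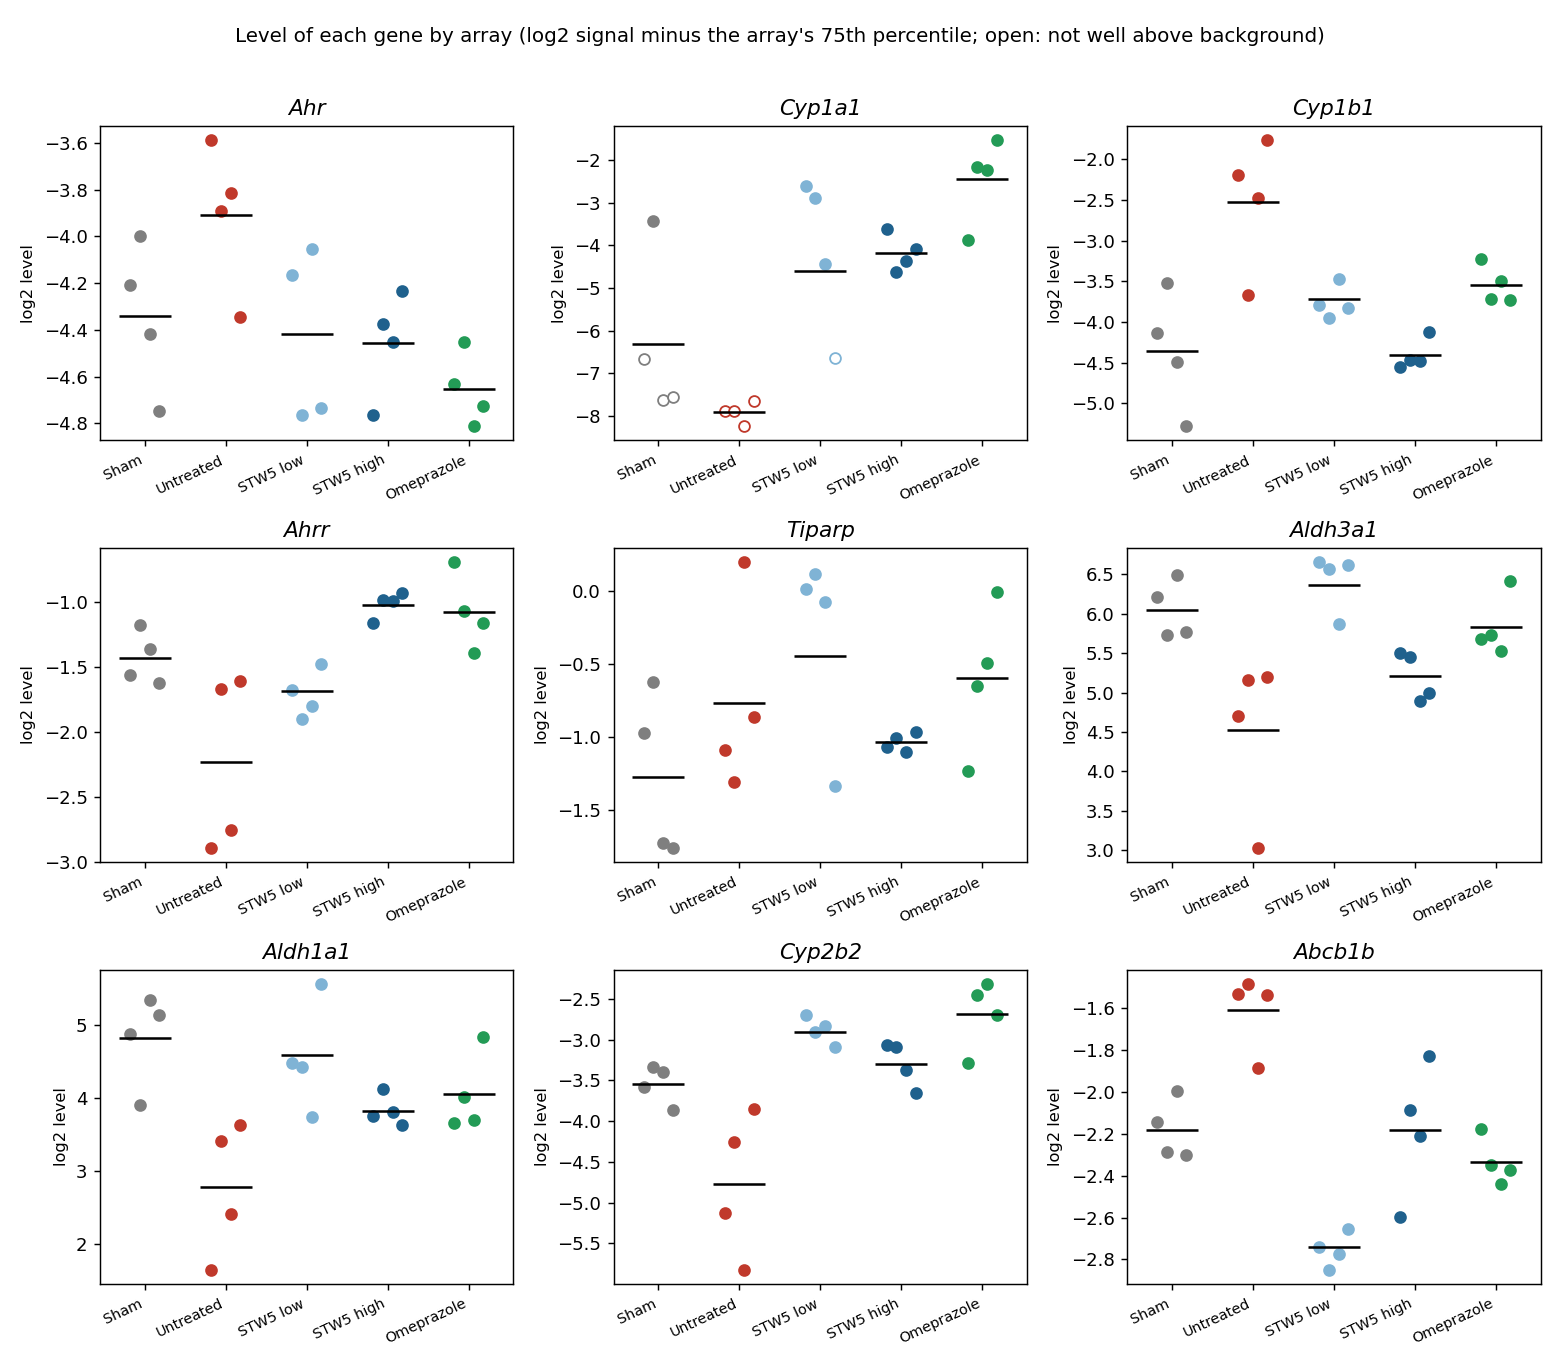
Level of each of the 9 genes on every array (log2 processed signal minus the array's 75th percentile), by group; bars are group means, with low-dose replicates 1 and 2 averaged first, and open circles are signals not well above background. Cyp1a1 lies between -8.24 and -7.65 on the untreated arrays and between -3.89 and -1.54 on the omeprazole arrays.

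Ahr, the receptor itself, was well above background on all arrays. Its level on replicates 1 to 4 was -4.21, -4.00, -4.42 and -4.75 in sham, -3.59, -3.89, -3.82 and -4.35 in untreated disease, -4.16, -4.77, -4.05 and -4.73 under low-dose STW5, -4.76, -4.37, -4.45 and -4.23 under high-dose STW5, and -4.63, -4.45, -4.81 and -4.72 under omeprazole. The untreated arrays were the highest as a group, and each omeprazole array lay below all of them; the other groups overlapped with untreated disease. Ahr fell by 0.75 ± 0.20 under omeprazole (SE; adjusted p = 0.0115, 1.68-fold). The differences of -0.51 ± 0.21 under low-dose and -0.55 ± 0.20 under high-dose STW5 were not called (adjusted p = 0.0716 and 0.0904), nor was that of 0.43 ± 0.20 between untreated disease and sham (adjusted p = 0.103). With both doses together the difference from untreated disease was called (-0.53 ± 0.18, adjusted p = 0.0325). Leaving out untreated replicate 4, the lowest of its group, called Ahr also in low-dose and high-dose STW5 against untreated disease (adjusted p = 0.0257 and 0.0492) and in untreated disease against sham (adjusted p = 0.0372); the low-dose difference was also called without low-dose replicate 1 (adjusted p = 0.0400) or 3 (adjusted p = 0.0350).

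Of the receptor's partners and chaperones, Arnt did not pass the filter on dim probes, and 5 of the 6 listed genes passed the filter. The chaperone gene Hsp90ab1 rose by 0.43 ± 0.13 under omeprazole (adjusted p = 0.0201) and Hsp90aa1 rose by 0.49 ± 0.17 in untreated disease against sham (adjusted p = 0.0321). In limma no partner was called in either STW5 group against untreated disease, and 0 had an unadjusted p under 0.05. Over all genes 38.1% (low dose) and 8.6% (high dose) were called there.

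Cyp1a1, the enzyme most used as a readout of the receptor, was not well above background on any untreated array. The untreated levels were -7.90, -7.90, -8.24 and -7.65. Under omeprazole the levels were -3.89, -2.17, -2.22 and -1.54, and under high-dose STW5 -3.61, -4.62, -4.37 and -4.09, well above background on all 8 arrays. Low-dose STW5 gave -2.60, -2.89, -4.43 and -6.65, and sham gave -6.66, -3.44, -7.63 and -7.55. Every drug-treated array lay above every untreated array, but low-dose replicate 4 was at the level of the dim sham arrays and not well above background. In sham, replicate 2 was the single array with a clear signal, at the level of the drug groups. Sham replicate 2 is also the sham array that most resembled an omeprazole array over all genes, and low-dose replicate 4 correlated more with sham replicate 3 (r = 0.986) than with its own group (at most 0.965). Cyp1a1 differences without each of these 2 arrays are given below. Why these arrays differ from their groups was not tested.

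Because the untreated signals lie at background, folds against them are lower bounds: the drug group's mean is set against the lowest level on each untreated array among probes with every spot well above background. Cyp1a1 was at least 10.8-fold higher under omeprazole (measured difference 5.47 ± 0.83, adjusted p = 0.000394). It was at least 3.27-fold higher under high-dose STW5 (3.75 ± 0.83, adjusted p = 0.0139) and at least 2.42-fold higher under low-dose STW5 (3.31 ± 0.90, adjusted p = 0.00875), or at least 4.90-fold without low-dose replicate 4 (4.33). With both STW5 doses pooled the difference was 3.53 ± 0.74 (adjusted p = 0.00278). That pooled comparison, chosen after the data were seen, called 8 of the 9 genes, all but Tiparp, with 31.3% of all genes called. Besides Cyp1a1 and Ahr, its differences were 1.67 for Cyp2b2, 1.44 for Aldh1a1, 1.27 for Aldh3a1 and 0.88 for Ahrr. They were 0.02 for Tiparp, -0.85 for Abcb1b and -1.54 for Cyp1b1. The high-dose call was lost without high-dose replicate 1 (3.56, adjusted p = 0.0553), with dim signals raised to the lowest level well above background (1.71, adjusted p = 0.0601) and with normexp background correction (0.66, adjusted p = 0.148). Under the same changes of background handling the omeprazole difference was 3.43 (raised) and 1.80 (normexp) and the low-dose difference 1.70 and 1.02, all still called.

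In order, the mean Cyp1a1 levels were omeprazole -2.45 ± 1.005 (SD, n = 4), high-dose STW5 -4.17 ± 0.43 (n = 4), low-dose STW5 -4.61 ± 1.96 (n = 3), sham -6.32 ± 1.97 (n = 4) and untreated -7.92 ± 0.24 (n = 4). No pair of neighbours in this order was called. Against sham, omeprazole was higher by 3.86 ± 0.83 (adjusted p = 0.0261), with omeprazole replicate 1 below sham replicate 2. That call was lost without sham replicate 1, 3 or 4 or omeprazole replicate 2, 3 or 4 (adjusted p from 0.0767 to 0.121), and held without sham replicate 2 (4.82, adjusted p = 0.000771) and without sham replicate 2 and omeprazole replicate 2 together (4.73, adjusted p = 0.00397). High-dose STW5 against sham was not called (2.15 ± 0.83, adjusted p = 0.116), but was without sham replicate 2 (3.1, adjusted p = 0.0103). Low-dose STW5 against sham was not called in any setting tried (1.71 ± 0.90, adjusted p = 0.646), and was 2.67 without sham replicate 2 and 2.73 without low-dose replicate 4.

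Cyp1a2, the close relative of Cyp1a1 that is chiefly expressed in liver, was not well above background on any of the 20 arrays. Liver genes were dim: of 6 liver markers 3 passed the filter (Alb and Ttr, well above background on 12 and 15 arrays, and Serpina1 on 20). Their mean level ran from -5.94 to -5.42 in untreated disease, from -4.84 to -3.28 under omeprazole, from -4.50 to -4.05 under low-dose STW5, from -5.29 to -4.84 under high-dose STW5 and from -5.74 to -3.32 in sham. It was lowest in the untreated group, as Cyp1a1 was, and its part in the result was not tested.

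Cyp1b1 is a related monooxygenase and also a receptor target, and unlike Cyp1a1 it was highest in untreated disease. Sham levels were -4.14, -3.53, -4.50 and -5.28, and untreated levels -2.19, -3.68, -2.47 and -1.77. Low-dose STW5 gave -3.79, -3.96, -3.47 and -3.83, high-dose STW5 -4.55, -4.47, -4.48 and -4.13, and omeprazole -3.23, -3.72, -3.50 and -3.74. Untreated replicate 2 fell among the treated and sham arrays, and the other untreated arrays were the highest of all. Cyp1b1 rose by 1.83 ± 0.36 in untreated disease against sham (3.56-fold, adjusted p = 0.00136). Against untreated disease it fell by 1.88 ± 0.36 under high-dose STW5 (3.68-fold, adjusted p = 0.00527), by 1.20 ± 0.38 under low-dose STW5 (2.29-fold, adjusted p = 0.0217) and by 1.02 ± 0.36 under omeprazole (2.03-fold, adjusted p = 0.0423). The high-dose call held in all 30 alternatives. The omeprazole call held in 17 of 30 and was lost, among others, without untreated replicate 1, 3 or 4, without omeprazole replicate 2, 3 or 4, without high-dose replicate 1, 2 or 3, or without sham replicate 3 (adjusted p up to 0.132), and the low-dose call was lost without untreated replicate 1 or 4, without low-dose replicate 4, and with normexp correction (-0.48, adjusted p = 0.0895). No drug group was called against sham.

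Ahrr, the repressor that competes with the receptor for Arnt, was lower in untreated disease and higher under omeprazole and high-dose STW5. Its untreated levels split into -2.90 and -2.76 (replicates 1 and 3) and -1.67 and -1.61 (replicates 2 and 4). Sham levels were -1.56, -1.18, -1.36 and -1.62, low-dose levels -1.68, -1.90, -1.80 and -1.48, high-dose levels -1.16, -0.99, -0.995 and -0.93, and omeprazole levels -0.69, -1.07, -1.39 and -1.16. All high-dose and omeprazole arrays lay above all untreated arrays; the low-dose arrays overlapped with them. Ahrr rose by 1.21 ± 0.25 under high-dose STW5 (2.32-fold, adjusted p = 0.0105) and by 1.15 ± 0.25 under omeprazole (2.23-fold, adjusted p = 0.00389). The omeprazole call held in all 30 alternatives. The high-dose call held in 28 of 30, including all 20 that left out 1 array, with a lowest difference of 0.64 and an adjusted p up to 0.0820. The low-dose difference of 0.54 ± 0.27 was not called (adjusted p = 0.128), though it was without untreated replicate 2 (adjusted p = 0.0439) or 4 (adjusted p = 0.0354). It was called in 3 of 30 alternatives and reached 1.18 in an alternative that left out no single array. The contrast between the doses for Ahrr therefore depends on the processing. Ahrr fell by 0.80 ± 0.25 in untreated disease against sham (adjusted p = 0.0227), a call lost without sham replicate 2 or 3 or untreated replicate 1 or 3 (adjusted p from 0.0548 to 0.0852). The Ahrr window printed above is the one with 3 receptor cores.

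Tiparp, a mono-ADP-ribosyltransferase induced by the receptor that dampens its signal, was not called in any comparison under any setting tried. Its levels scattered widely within groups: sham -0.98, -0.62, -1.73 and -1.76, untreated -1.09, -1.31, 0.20 and -0.87, low-dose STW5 0.01, 0.12, -0.07 and -1.33, high-dose STW5 -1.07, -1.01, -1.10 and -0.97, and omeprazole -1.24, -0.65, -0.50 and -0.01. Each group other than high-dose STW5 spanned over a doubling, and all groups overlapped with untreated disease. The differences from untreated disease and their 95% intervals were 0.17 (-0.61 to 0.94) under omeprazole, -0.27 (-1.05 to 0.51) under high-dose STW5 and 0.32 (-0.52 to 1.16) under low-dose STW5. Tiparp rests on 1 spot per array.

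**Figure D2:**
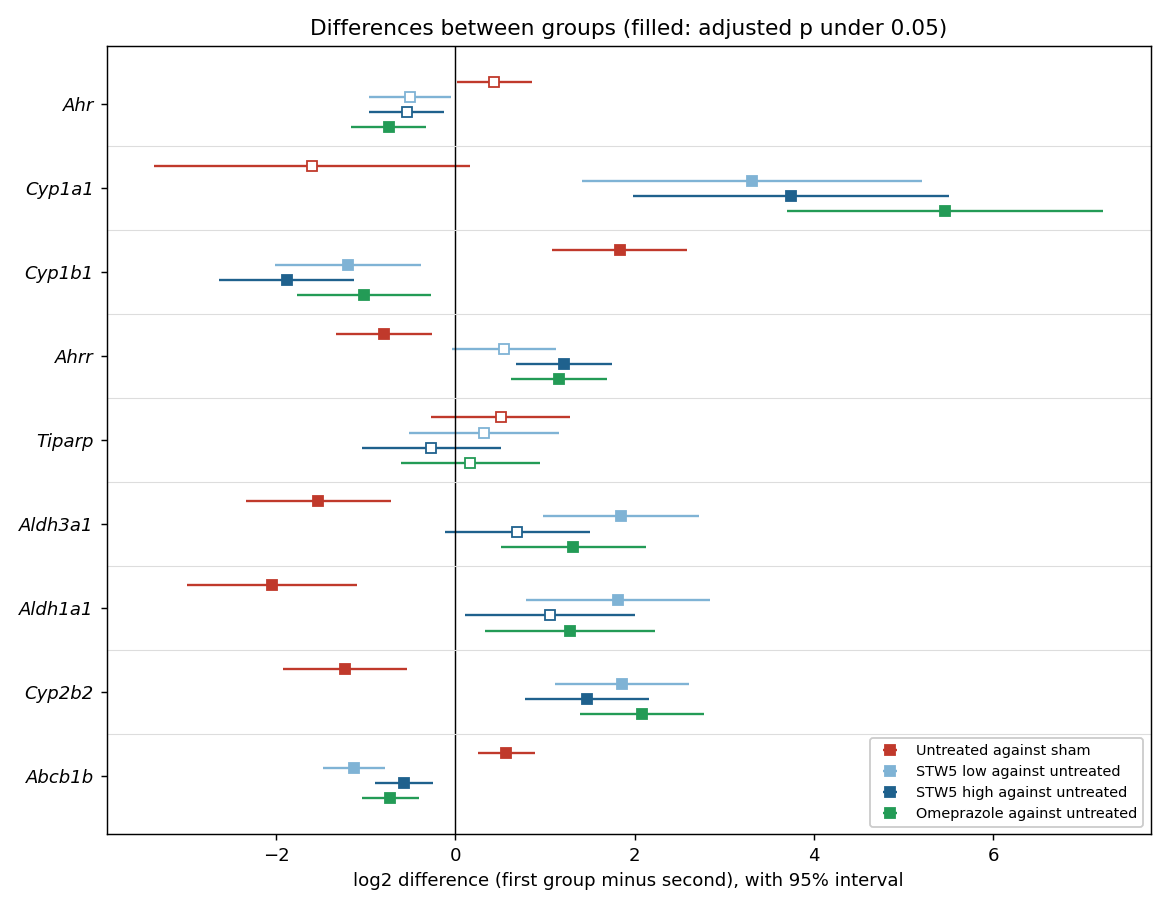
Differences between groups for each gene (log2, first group minus second) with 95% intervals, for untreated disease against sham and each drug group against untreated disease; filled squares have an adjusted p under 0.05. The omeprazole difference for Cyp1a1, 5.47, lies farthest from 0, and Tiparp has no filled square.

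Aldh3a1 oxidises aromatic and lipid-derived aldehydes and is a receptor target that is also abundant in squamous epithelium. It was bright on all arrays: sham 6.21, 5.73, 6.49 and 5.77, untreated 4.70, 5.16, 3.02 and 5.20, low-dose STW5 6.66, 6.57, 5.87 and 6.62, high-dose STW5 5.50, 5.45, 4.89 and 5.00, omeprazole 5.68, 5.74, 5.52 and 6.42. Untreated arrays lay below all sham, low-dose and omeprazole arrays and overlapped with the high-dose arrays. Aldh3a1 fell by 1.53 ± 0.38 in untreated disease against sham (2.89-fold, adjusted p = 0.00640). It rose by 1.85 ± 0.41 under low-dose STW5 (3.60-fold, adjusted p = 0.00254) and by 1.32 ± 0.38 under omeprazole (2.49-fold, adjusted p = 0.0179), a call lost without omeprazole replicate 4 (adjusted p = 0.0631). The high-dose difference of 0.69 ± 0.38 was not called (adjusted p = 0.252).

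Aldh1a1, which makes retinoic acid from retinal and is not a classic receptor target, was also lowest in untreated disease. Its levels were 4.88, 3.91, 5.36 and 5.14 in sham, 1.64, 3.41, 2.41 and 3.64 in untreated disease, 4.48, 4.43, 3.74 and 5.57 under low-dose STW5, 3.75, 4.13, 3.81 and 3.63 under high-dose STW5 and 3.67, 4.02, 3.70 and 4.84 under omeprazole. The untreated arrays lay below the sham, low-dose and omeprazole arrays, and untreated replicate 4 just reached the lowest high-dose array. Aldh1a1 fell by 2.05 ± 0.45 in untreated disease against sham (4.13-fold, adjusted p = 0.00286), and rose by 1.82 ± 0.49 under low-dose STW5 (3.52-fold, adjusted p = 0.00781) and by 1.28 ± 0.45 under omeprazole (2.43-fold, adjusted p = 0.0427). The omeprazole call held in 17 of 30 alternatives and was lost without untreated replicate 1 or 3, any single high-dose array, or omeprazole replicate 2, 3 or 4 (adjusted p up to 0.142). The high-dose difference of 1.06 ± 0.45 was not called (adjusted p = 0.138). Over the 19 samples Aldh1a1 and Aldh3a1 had r = 0.80, a description of samples that share groups and arrays. The near relative Aldh1a7 fell by 2.31 ± 0.68 in untreated disease against sham (adjusted p = 0.0156) and rose by 2.99 ± 0.73 under low-dose STW5 (adjusted p = 0.00468) and by 2.44 ± 0.68 under omeprazole (adjusted p = 0.0143). Its high-dose difference of 1.96 ± 0.68 was not called (adjusted p = 0.0775), and it was well above background on 3 of 4 untreated arrays.

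The mean level of 11 measured squamous markers (of 13 listed) ran from 1.56 to 3.13 in untreated disease, 2.77 to 3.82 in sham, 3.17 to 4.08 under low-dose STW5, 3.07 to 3.61 under omeprazole and 2.39 to 2.76 under high-dose STW5. It moved with both aldehyde dehydrogenases, down in the untreated group and between untreated and sham under high-dose STW5. The mean of 8 macrophage markers ran from 1.70 to 2.77 in untreated disease, -1.39 to 0.30 in sham, -1.83 to -0.14 under low-dose STW5, 0.59 to 1.47 under high-dose STW5 and -0.41 to 0.22 under omeprazole, highest where Cyp1b1 and Abcb1b were highest. The mean of 6 fibroblast markers ran from 4.27 to 5.28 in untreated disease, 2.83 to 4.26 in sham, 2.23 to 3.58 under low-dose STW5, 4.45 to 4.60 under high-dose STW5 and 3.84 to 4.10 under omeprazole, so it was near the untreated level in the group where Cyp1b1 was lowest. Of skeletal muscle, 7 markers were measured, and their mean ran from 2.61 to 3.45 in untreated disease, below every sample of sham (4.08 to 4.62), low-dose STW5 (4.17 to 4.62), high-dose STW5 (3.47 to 4.27) and omeprazole (4.18 to 4.75), as Cyp1a1 was. Neutrophil markers (7) ran from -1.17 to 1.37 in untreated disease and T and NK cell markers (6) from -4.33 to -1.84. In sham those ran from -5.16 to -1.18 and from -6.05 to -4.59, under low-dose STW5 from -4.90 to -2.23 and from -5.89 to -5.44, under high-dose STW5 from -2.51 to -0.65 and from -5.09 to -3.99, and under omeprazole from -4.35 to -1.14 and from -5.59 to -4.37. The part of these cell types in the results was not tested.

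**Figure D3:**
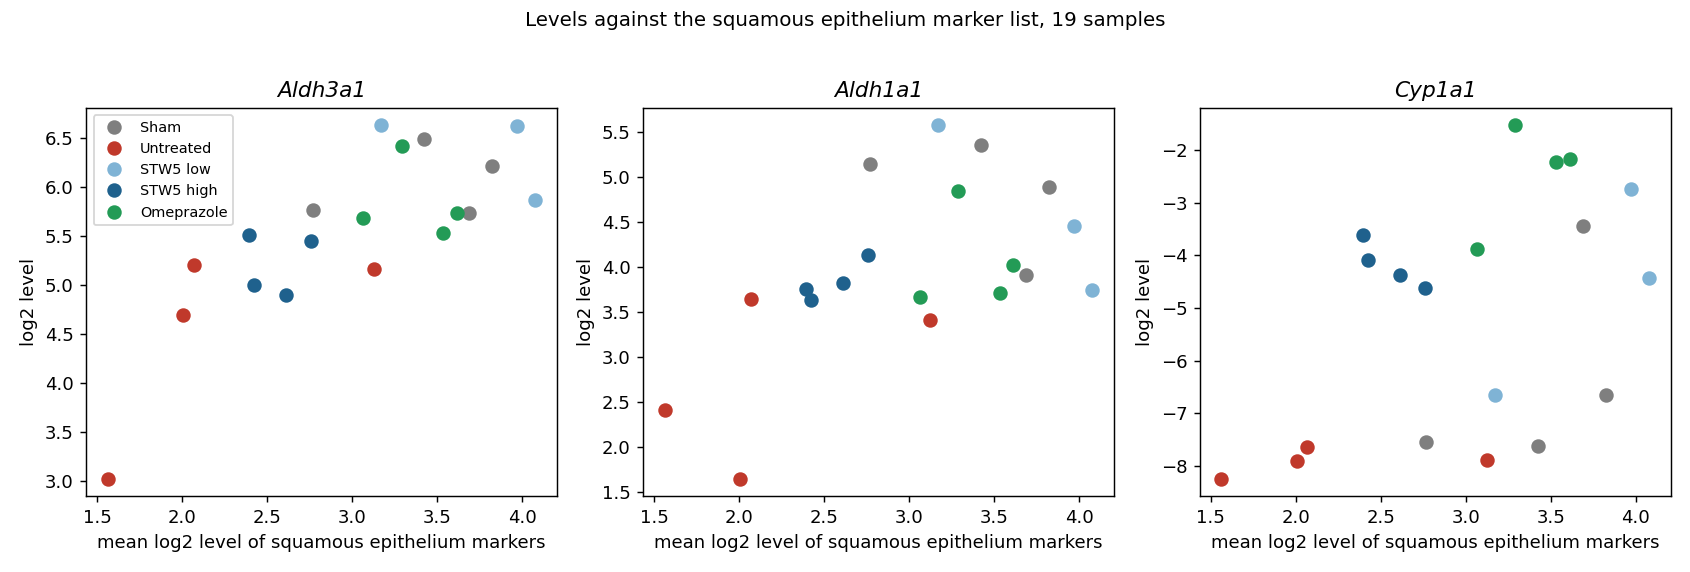
Levels of Aldh3a1, Aldh1a1 and Cyp1a1 (log2) against the mean log2 level of 11 squamous epithelium markers in 19 samples, coloured by group. The untreated samples have marker levels from 1.56 to 3.13, and the omeprazole samples (3.07 to 3.61) lie within the marker range of sham (2.77 to 3.82), while 3 of the 4 lie above every sham sample in Cyp1a1.

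Cyp2b2, a monooxygenase of drug and steroid metabolism, rose in each drug group against the shared untreated arrays. It was read by 2 probes, and their sequences are shown because Cyp2b genes are near copies of each other and a reader may want to compare the probes with them.
Cyp2b2 brighter probe: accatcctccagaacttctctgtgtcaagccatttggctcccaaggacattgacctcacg
Cyp2b2 dimmer probe: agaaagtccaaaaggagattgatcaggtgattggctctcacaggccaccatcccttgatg
The probes lie at chr1:81358908-81358967 (brighter, used for all tests) and chr1:81354719-81354778 (dimmer) of rat assembly rn4, per the array's annotation. The brighter probe gave -3.58, -3.33, -3.39 and -3.86 in sham, -5.13, -4.26, -5.82 and -3.85 in untreated disease, -2.70, -2.90, -2.83 and -3.09 under low-dose STW5, -3.07, -3.08, -3.37 and -3.65 under high-dose STW5, and -3.28, -2.45, -2.31 and -2.69 under omeprazole. Every drug-treated array lay above every untreated array. Cyp2b2 rose by 2.08 ± 0.33 under omeprazole (4.23-fold, adjusted p = 0.000479), by 1.86 ± 0.35 under low-dose STW5 (3.63-fold, adjusted p = 0.000866) and by 1.47 ± 0.33 under high-dose STW5 (2.78-fold, adjusted p = 0.0139). It fell by 1.23 ± 0.33 in untreated disease against sham (2.34-fold, adjusted p = 0.00921). The high-dose call held in 28 of 30 alternatives. It was lost without high-dose replicate 1 (adjusted p = 0.0553) and in 1 alternative that left out no single array (adjusted p = 0.0776). The lowest high-dose difference in any alternative was 0.53. The call against sham in untreated disease held in 29 of 30 (adjusted p up to 0.0654), and the low-dose and omeprazole calls held in all 30. The dimmer probe was well above background on 1 sham, no untreated, 1 low-dose, 1 high-dose and 3 omeprazole arrays, so no difference is given for it. The paralog Cyp2b1 was not matched by name here, and these probes may also bind near-identical Cyp2b transcripts, so the value is uncertain as to which copy it measures. Over the 19 samples Cyp2b2 had r = 0.78 with Cyp1a1.

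Among 22 listed genes of the receptors CAR and PXR and their targets, 10 passed the filter. Cyp3a9 and Cyp2b21 were the only ones called in low-dose STW5 or omeprazole against untreated disease. Over all genes 38.1% and 27.5% were called there. The steroid hydroxylase gene Cyp3a9 rose by 1.94 ± 0.33 under low-dose STW5 (adjusted p = 0.000491) and by 1.51 ± 0.31 under omeprazole (adjusted p = 0.00247), and fell by 1.43 ± 0.31 in untreated disease against sham (adjusted p = 0.00252). Cyp2b21 rose by 2.20 ± 0.71 under low-dose STW5 (adjusted p = 0.0216) and by 2.40 ± 0.65 under omeprazole (adjusted p = 0.0126). It was well above background on 2 of 4 untreated, 3 of 4 low-dose and 4 of 4 omeprazole arrays, so these differences rest partly on background. In limma no gene of this list was called in high-dose STW5 against untreated disease (8.6% of all genes called), and 3 had an unadjusted p under 0.05. Against sham, no gene of the list was called under low-dose STW5 or omeprazole (0.00781% and 1.09% of all genes called). Under high-dose STW5 only the dim Cyp2b15 was called against sham (-1.03, at a mean level of -6.30), where 7.66% of all genes were. That mean lies below the lowest level well above background on each high-dose array (-6.26 to -5.62), so the size rests partly on background. The receptor genes themselves, Nr1i2 and Nr1i3, were well above background on at most 2 arrays of any group, and no difference is given for them.

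Abcb1b encodes a P-glycoprotein, the pump that exports many drugs from cells, and was highest in untreated disease. Its levels were -2.15, -2.29, -2.00 and -2.30 in sham, -1.53, -1.49, -1.89 and -1.54 in untreated disease, -2.74, -2.85, -2.78 and -2.65 under low-dose STW5, -2.60, -2.09, -2.21 and -1.83 under high-dose STW5, and -2.18, -2.35, -2.44 and -2.37 under omeprazole. On the probe used, which has 1 spot per array, the untreated arrays lay above all sham, low-dose and omeprazole arrays. High-dose replicate 4 reached into their range. Abcb1b rose by 0.57 ± 0.15 in untreated disease against sham (1.49-fold, adjusted p = 0.00928). It fell by 1.13 ± 0.16 under low-dose STW5 (2.19-fold, adjusted p = 0.000259), by 0.73 ± 0.15 under omeprazole (1.65-fold, adjusted p = 0.00300) and by 0.57 ± 0.15 under high-dose STW5 (1.49-fold, adjusted p = 0.0305). The high-dose call was lost without untreated replicate 1 or 4 or high-dose replicate 1, 2 or 3 (adjusted p from 0.0577 to 0.116). A second, dimmer probe with 2 spots per array gave differences of -1.04, -0.79 and -0.67 in the same order. It gave 0.49 for untreated disease against sham and 0.37 for the high against the low dose. On it the untreated arrays did not all lie above sham. Untreated replicate 3 read 131.9 units (75th percentile of the array 855), beside 129.5 to 170.6 units in sham (75th percentiles 574 to 849). The sister gene Abcb1a was not well above background on any of the 20 arrays.

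Omeprazole and STW5 were also compared directly. No member was called between high-dose STW5 and omeprazole (0.211% of all genes called), low-dose STW5 and omeprazole (1.72%), or both doses pooled and omeprazole (0.305%). For Cyp1a1 the mean under STW5 was lower than under omeprazole by 1.72 for the high dose (difference -1.72, 95% interval -3.48 to 0.04, unadjusted p = 0.0551 and adjusted p = 0.285 in limma) and by 2.16 for the low dose (difference -2.16, interval -4.06 to -0.25, adjusted p = 0.196). The interval for the high dose just includes no difference and that for the low dose does not, so the data do not show that the drugs act alike on this gene. With both doses together the difference was -1.94 ± 0.74 (adjusted p = 0.483). For Ahrr the high-dose difference from omeprazole was 0.06 (interval -0.48 to 0.59) and for Cyp2b2 it was -0.61 (-1.30 to 0.08). At an unadjusted p under 0.05, limma gave 1 member between the high dose and omeprazole (Cyp1b1), 3 between the low dose and omeprazole (Cyp1a1, Ahrr, Abcb1b) and 1 between both doses together and omeprazole (Cyp1a1).

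Between the STW5 doses, Abcb1b was the one member called: it was 1.47-fold higher under the high dose (0.56 ± 0.16, adjusted p = 0.0237, with 23.6% of all genes called). Aldh3a1 was lower under the high dose by 1.16 ± 0.41 without reaching the threshold (difference -1.16, adjusted p = 0.0519), and Ahrr higher by 0.67 ± 0.27 (adjusted p = 0.0822). The arrays of the doses lie on different slides, and under the value table's own sample names the Abcb1b difference is -0.43. The call for Abcb1b was lost without low-dose replicate 3 or high-dose replicate 2 or 4 (adjusted p from 0.0544 to 0.0779). Against sham, no member was called by limma for the low dose (0.00781% of all genes) or the high dose (7.66%), and 1 (Abcb1b) and 3 (Cyp1a1, Aldh3a1, Aldh1a1) had an unadjusted p under 0.05. Pooled, the doses gave no call against sham (0.414% of all genes), and 1 member, Cyp1a1, had an unadjusted p under 0.05.

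Other receptor targets were followed as a list of 12, of which 9 passed the filter. Under low-dose STW5 4 rose and 1 fell against untreated disease (38.1% of all genes called), and under omeprazole 3 rose and 1 fell (27.5%). Under high-dose STW5 limma called 0 (8.6% of all genes), with 1 at an unadjusted p under 0.05. The median difference over the 9 was 0.68, 0.38 and -0.11, beside 0.15, 0.09 and -0.02 over all genes. This list was also chosen with earlier results of these data known. Cyp2s1, an extrahepatic monooxygenase, rose by 1.68 ± 0.24 under low-dose STW5 (adjusted p = 0.000259) and by 1.01 ± 0.22 under omeprazole (adjusted p = 0.00388). Nqo1, a quinone reductase also driven by Nrf2, rose by 1.09 ± 0.30 and 1.10 ± 0.28 (adjusted p = 0.00875 and 0.00824). Serpinb2, a protease inhibitor of keratinocytes and macrophages, rose by 1.5 ± 0.35 and 1.02 ± 0.33 (adjusted p = 0.00350 and 0.0289). Slc7a5, an amino acid transporter, fell by 1.88 ± 0.49 and 1.31 ± 0.46 (adjusted p = 0.00721 and 0.0419). Ereg, a growth factor, rose by 1.16 ± 0.35 under low-dose STW5 (adjusted p = 0.0163); it was chosen after its values were seen. In untreated disease against sham Cyp2s1 fell by 1.32 ± 0.22 and Serpinb2 fell by 1.19 ± 0.33, and Slc7a5 rose by 1.69 ± 0.46 (adjusted p = 0.000583, 0.0110 and 0.00986). No gene of the list was called against sham under low-dose STW5 or omeprazole (0.00781% and 1.09% of all genes called). High-dose STW5 against sham (7.66% of all genes) gave -0.89 for Cyp2s1, -1.30 for Serpinb2 and 1.90 for Gsta2, all called. The Gsta2 difference was not particular to the high dose. Against sham it was 2.06 ± 0.60 under low-dose STW5, 1.63 ± 0.56 under omeprazole and 1.38 ± 0.56 in untreated disease, none of them called.

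Of 14 other cytochrome P450 genes measured, 4 rose and 3 fell under low-dose STW5, 3 rose and 4 fell under omeprazole, 2 fell under high-dose STW5, and 3 rose and 4 fell in untreated disease against sham. Over all genes the shares called in these comparisons were 38.1%, 27.5%, 8.6% and 33.7%, beside which this list and those of conjugation, transport and aldehyde metabolism below are to be read. Besides those described next, Cyp51, Cyp2f4 and Cyp2j4 rose and Cyp4f18 and Cyp20a1 fell under low-dose STW5, and Cyp2j4 and Cyp2f4 rose and Cyp4f18, Cyp20a1 and Cyp27b1 fell under omeprazole (Cyp2j4 and, for one drug or the other, the rest but Cyp51 were named after their values were seen). Cyp27b1, which activates vitamin D, fell by 1.42 under high-dose STW5. Cyp7b1, an oxysterol hydroxylase, rose by 2.37 ± 0.39 in untreated disease against sham (adjusted p = 0.000500) and fell by 2.69 ± 0.42, 1.32 ± 0.39 and 2.41 ± 0.39 under low-dose STW5, high-dose STW5 and omeprazole (adjusted p = 0.000328, 0.0462 and 0.000584). Cyp2j3, an arachidonic acid epoxygenase, went the other way, falling by 1.07 ± 0.23 in untreated disease against sham (adjusted p = 0.00230) and rising by 1.07 ± 0.24 and 0.94 ± 0.23 under low-dose STW5 and omeprazole (adjusted p = 0.00282 and 0.00651). Of 23 measured conjugation enzymes, 5 rose and 3 fell under low-dose STW5, 2 rose and 2 fell under high-dose STW5, 4 rose and 2 fell under omeprazole, and 4 rose and 3 fell in untreated disease against sham; the low-dose and omeprazole shares lie close to those over all genes. The glutathione transferase Gstm3 rose in each drug group, by 2.13 ± 0.40, 1.24 ± 0.37 and 1.83 ± 0.37 under low-dose STW5, high-dose STW5 and omeprazole (adjusted p = 0.000816, 0.0481 and 0.00247). It was well above background on 2 of 4 untreated arrays and on all drug-treated ones, so these sizes rest partly on background. Among the other conjugation genes called under high-dose STW5, Gstt2 rose by 1.37 and Mgst1 fell by 0.88. Gstm2 and Gsta4, also glutathione transferases, rose by 1.66 and 1.10 under low-dose STW5 and by 1.26 and 0.68 under omeprazole.

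Of 6 other efflux transporters measured, 2 rose and 1 fell under low-dose STW5, 1 fell under high-dose STW5, 1 fell under omeprazole, and 1 rose and 2 fell in untreated disease against sham. Abcb4, the phospholipid pump, rose by 1.19 ± 0.31 in untreated disease against sham (adjusted p = 0.00771) and fell by 1.3 ± 0.33 and 1.08 ± 0.31 under low-dose and high-dose STW5 (adjusted p = 0.00608 and 0.0397), with 2 of 4 sham and 2 of 4 low-dose arrays well above background. Abcc1 and Abcc4, exporters of conjugates, fell by 0.63 ± 0.21 and 0.68 ± 0.25 in untreated disease against sham (adjusted p = 0.0304 and 0.0451) and rose by 0.84 ± 0.23 and 0.91 ± 0.27 under low-dose STW5 (adjusted p = 0.00954 and 0.0144). Abcg2, another drug pump, fell by 1.91 ± 0.65 under omeprazole (adjusted p = 0.0373), where 2 of 4 arrays were well above background.

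Of 17 measured genes of aldehyde and retinoid metabolism, 5 rose and 5 fell under low-dose STW5, 6 rose and 3 fell under omeprazole, 1 rose under high-dose STW5, and 3 rose and 5 fell in untreated disease against sham. The high-dose gene was Aldh1a2, another retinal dehydrogenase, which rose by 2.49 ± 0.36 (adjusted p = 0.000491) from an untreated group with 2 of 4 arrays well above background. It also rose by 1.12 ± 0.36 under omeprazole (adjusted p = 0.0304, chosen after its values were seen), and no low-dose array was well above background. Cyp26b1, which degrades retinoic acid, fell by 1.3 ± 0.28 in untreated disease against sham (adjusted p = 0.00276) and rose by 1.89 ± 0.31 and 1.38 ± 0.28 under low-dose STW5 and omeprazole (adjusted p = 0.000388 and 0.00262). Aldh3b1, a membrane aldehyde dehydrogenase, rose by 3.1 ± 0.39 in untreated disease against sham (adjusted p = 0.000181) and fell by 3.23 ± 0.42 and 2.71 ± 0.39 under low-dose STW5 and omeprazole (adjusted p = 0.000182 and 0.000253).

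The genes whose levels followed Cyp1a1 most closely over the 19 samples, members aside, were Atmin (r = 0.87), Slc25a22 (0.87), Trmt10b (0.86), Glyr1 (0.85) and Hk1 (0.85). These correlations pool groups, arrays and dim Cyp1a1 signals and are a description. Slc25a22, a mitochondrial glutamate carrier, had means of -2.13 ± 0.30 in untreated disease (SD, n = 4), -1.29 ± 0.10 in sham (n = 4), -0.93 ± 0.21 under low-dose STW5 (n = 3), -0.84 ± 0.08 under high-dose STW5 (n = 4) and -0.68 ± 0.23 under omeprazole (n = 4). The glycolytic enzyme gene Hk1 was at 1.13 ± 0.19, 1.79 ± 0.27, 1.80 ± 0.28, 1.87 ± 0.07 and 2.32 ± 0.18 in the same order. Among the members, the correlations with Cyp1a1 were 0.78 for Cyp2b2, 0.59 for Ahrr, 0.45 for Tiparp, 0.36 for Aldh3a1, 0.15 for Aldh1a1, -0.23 for Cyp1b1, -0.48 for Ahr and -0.61 for Abcb1b.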

How the data were processed

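The members and all gene lists were chosen with earlier results of these data known. The intensity values were deposited by the authors as processed by Agilent Feature Extraction 10.7.3.1, per the file headers, which subtracted background and removed spatial trends, and 61.5% to 70.5% of features per array were well above background. A deposited value table by the authors holds ratios with a median of 1 in each column; its scale and centring steps are not given in the sources used here, and it served as an alternative. The number of arrays limits the precision.

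Control spots and outlier features (263 to 377 per array) were left out, spots of a probe averaged, log2 taken and the array's 75th percentile subtracted. Kept probes had at least 50% of spots well above background on at least 4 arrays (19921 of 30367), and a gene was read by its brightest kept probe, giving 12801 genes. Array gene names were updated through RefSeq tables (GRCr8): 18005 probes by accession, 2668 by symbol and 547 by synonym. No spot of a member was saturated. All 5 groups entered one limma fit (limma 3.58.1, R 4.3.3) without covariates, with Benjamini-Hochberg adjustment. The labels do not say that replicates are separate animals, so p-values measure the spread between these samples. From each pathway list up to 4 called genes with the smallest p were named in each comparison with untreated disease and in untreated disease against sham; near relatives and all members were named whatever their values. A conjugation gene that this rule would name is not reported here. Alternatives covered background correction, normalization, the filter, the probe rule, the groups fitted, the replicate block, the value table and leaving out each array. On simulated data for omeprazole against untreated disease (12801 genes), 100 genes were changed by 1 and 100 by 2 on the log2 scale. Of these, 50% and 86% were called, with 8 false calls. A far larger share of genes, 27.5%, was called in the data, and the adjusted threshold depends on that share. These rates therefore need not hold for the data.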

Additional observations from a re-analysis of the deposited data

Results flagged for a closer look

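Among the 36 groups of 4 samples formed by the 9 genes, 1 held a sample far from the others: Abcb1b on untreated replicate 3 was at -1.89, with its nearest neighbour at -1.54. The gap was 0.872 of the group's range. Chance marks about 1 in 20 such groups.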

How the results depend on the processing

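Leaving out arrays one at a time, the number of members called ranged from 5 to 7 for untreated disease against sham, 5 to 7 for low-dose STW5, 2 to 5 for high-dose STW5 and 5 to 8 for omeprazole against untreated disease. It ranged from 0 to 1 for high-dose STW5 or omeprazole against sham and from 0 to 2 between the doses, and was 0 in the other comparisons. Fitting only the groups compared called 3 members in untreated disease against sham, 2 in high-dose STW5 and 5 in omeprazole against untreated disease, 0 in omeprazole against sham, 3 between the doses and 1 between high-dose STW5 and omeprazole. With normexp correction 0 members were called in omeprazole against sham, 4 between the doses and 1 between low-dose STW5 and omeprazole. Quantile normalization called 0 in omeprazole against sham and 0 between the doses. Between the doses, all 20 arrays as samples called 3, no filter 2, raised dim signals 2 and the mean of all probes 0. Without sham replicate 2 and omeprazole replicate 2 together, 1 was called in high-dose STW5 against sham. Under the value table's own sample names the doses changed places: high against low dose gave -0.43 for Abcb1b and 1.29 for Aldh3a1. The cause of these changes was not tested.

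With the replicate block and all 20 arrays, 3 members were called between the doses. The numbers did not pair the samples, since 19 of 40 same-numbered pairs had a correlation of deviations over 0.1 and 5 arrays were nearest to their own number, so the block has no further meaning here. A random block for slide could not be fitted.

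Over all genes, fitting only the groups compared called 2213 genes in untreated disease against sham (4309 with all groups), 2718 in low-dose STW5 (4875) and 287 in high-dose STW5 (1101) against untreated disease, 1159 between high-dose STW5 and omeprazole (27) and 85 in omeprazole against sham (139). Between low-dose STW5 and omeprazole that fit called fewer genes than the 220 of all groups. Normexp called 5038 between the doses (3026), 1359 between low-dose STW5 and omeprazole, 64 between high-dose STW5 and omeprazole and 60 in omeprazole against sham. It moved the median difference of all genes from -0.15 to -0.27 between the doses, from 0.05 to 0.20 between low-dose STW5 and omeprazole, from 0.09 to -0.01 in omeprazole against untreated disease and from 0.01 to -0.10 in omeprazole against sham. Between low-dose STW5 and omeprazole 936 genes were called with all 20 arrays and 971 with the replicate block, which also called 69 between high-dose STW5 and omeprazole and 4675 between the doses; quantile normalization called 41 between high-dose STW5 and omeprazole. Of the single-gene values under settings that leave out no single array, 844 kept direction and side of the threshold, 31 lost the call, 23 gained it and 2 reversed.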
